A study of Mus musculus with 23 samples.

Results

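Transplantation of the gut microbiota of alginate oligosaccharide (AOS)-dosed mice (A100-FMT) was compared with saline (Sa) in the small intestine of busulfan-treated mice, in the first of the 2 sets of libraries that the sample titles number. The comparison is chosen by its labels and takes 5 of the 23 RNA-seq libraries, 3 of A100-FMT and 2 of Sa. All recipients were male ICR mice that were injected once with busulfan, an alkylating anticancer drug that injures the intestinal mucosa, at 40 mg/kg body weight and 3 weeks of age. A100-FMT recipients were then gavaged once daily for 1 week with small intestinal contents pooled from donors given AOS, the short sugar chains made by breaking down the seaweed polymer alginate, at 100 mg/kg. Sa recipients received saline in its place and so also carried the busulfan injury. Con-FMT recipients received contents of donors given water, the vehicle, in place of AOS, and A10-FMT recipients those of donors given 10 mg/kg. The methods place collection at 5 weeks of age, and the labels do not state what sets 1 and 2 stand for. The contents of all donors of a dose were pooled, so the recipients of a group shared an inoculum, and no uninjected mice are in the comparison.

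The identity of 1 Sa library was uncertain. The sample titled Sa replicate 3 points by its title to a table column with that number, and by its description to a column numbered 2. Expression in the title's column followed the GC content of the genes more than in any other library: Spearman's rho between a gene's GC content and its deviation from the median library was 0.698 over 10527 genes. The same rho lay between -0.227 and 0.222 in the other 22 libraries and was -0.0915 in the description's column. Every comparison with Sa of set 1 was therefore made with each column in turn. A gene was taken as increased or decreased with both columns when it passed an adjusted p of 0.05 in the same direction each way. Both versions contain the same 3 A100-FMT libraries and the same Sa replicate 1, and so agreement between them is not replication. Which column is the labelled mouse was not settled by the labels.

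The small intestinal epithelium is renewed from stem cells in the crypts. Their daughters become absorptive enterocytes, which digest and take up nutrients across a brush border of microvilli, or secretory cells. Paneth cells stay at the crypt base and release lysozyme and alpha-defensins, peptides that kill or restrain bacteria. Interferons, released when cells sense microbes, act through a complex that contains the factors Stat2 and Irf9 on genes that carry an interferon-stimulated response element, and their products restrict viruses and intracellular bacteria.

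The libraries were those of an epithelium. Vil1, which encodes villin of the microvillus core, was at 746, 733 and 674 FPKM (fragments per kilobase of gene, a level scaled for gene length and library size) in A100-FMT, 660.3 and 657 FPKM in Sa and 575 FPKM in the description's column. Of the listed markers, 11 of 12 for stroma, 8 of 8 for enteric neurons and glia, 7 of 11 for smooth muscle and 7 of 9 for endothelium stayed under 1 FPKM in all 6 columns. Depth is unknown, because no read counts were used here.

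Of 11337 genes tested with the title's column, 2499 (22.0%) were increased and 1488 (13.1%) decreased in A100-FMT. With the description's column, 652 (5.75%) of 11345 genes were increased and 314 (2.77%) decreased. Both columns gave 520 increased genes (4.59% of the 11330 tested both ways) and 237 decreased genes (2.09%). For all 757 of them the 3 A100-FMT values lay outside the range of the 3 Sa columns, as they did above it for 15.7% and below it for 13.8% of all genes tested. The increased genes had a median log2 change of 0.62 with the title's column and 0.44 with the description's column, and the decreased genes -0.40 and -0.26, where the median of all genes was 0.05 and -0.01. At least 1 log2 unit of change with both columns was reached by 28 increased and 18 decreased genes.

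**Figure D1:**
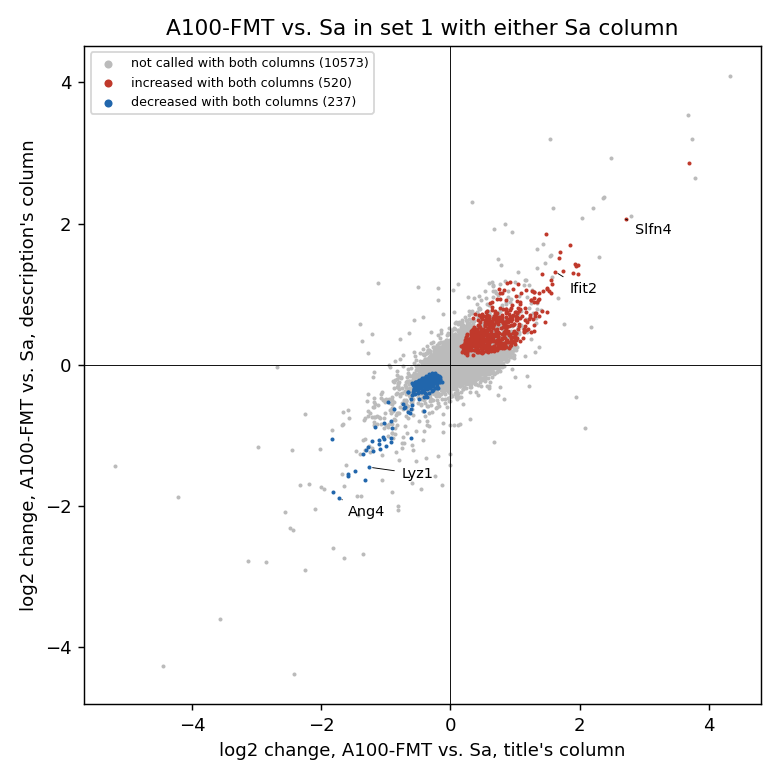
Log2 change of each of 11330 genes in A100-FMT against Sa, set 1, with the title's column (x axis) and with the description's column (y axis). Coloured points are the 520 genes increased and the 237 genes decreased with both, grey points the others. Ang4 and Lyz1 lie at the lower left of the decreased genes and Slfn4 and Ifit2 at the upper right of the increased genes.

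These calls used the spread estimated over all 8 groups of the series. With the 11 libraries of set 1 alone, limma called 24 increased and 8 decreased genes with both columns. With only the 5 libraries compared it called none with both, although the unadjusted p was under 0.05 for 1399 and 2572 genes. When Sa replicate 3 was left out, which leaves Sa replicate 1 alone, 22 increased and 5 decreased genes were called. An exact permutation test of 3 against 2 libraries could not go below p = 0.1 for a single gene.

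Of the 42 gene lists, which were chosen with earlier results of these data known, the interferon response held the most increased genes. Of 40 tested members, 27 were increased with both columns and 0 decreased, where 4.59% of all genes were increased. The median log2 change of the 40 members was 0.67 with the title's column and 0.61 with the description's column. The 27 genes spanned the pathway from its sensors (Ifih1, Ddx58, Zbp1) and its transcription factors (among them Stat2, Irf7 and Irf9) to effectors of the Ifit, Oas and Parp families. With the libraries of set 1 alone none of them was called with both columns, and without Sa replicate 3 only 2 were.

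Ifit2, which binds viral RNA, changed most with both columns. It was at 48.5, 27.9 and 31.2 FPKM in the A100-FMT libraries against 17.3 and 6.51 FPKM in Sa replicates 1 and 3 and 10.3 FPKM in the description's column, a log2 change of 1.62 ± 0.29 (SE; limma, adjusted p = 0.00371) or 1.32 ± 0.23 with the description's column (adjusted p = 0.00366). As for all genes called with both columns, the groups did not overlap, and Sa replicate 1 was the highest of the Sa columns. Rsad2, which encodes the antiviral enzyme viperin, was at 15.5, 16.2 and 16.8 FPKM in A100-FMT, 8.52 and 3.31 FPKM in Sa and 4.18 FPKM in the description's column (log2 changes 1.42 ± 0.28 and 1.29 ± 0.26; limma, adjusted p = 0.00524 and 0.00685). Its A100-FMT values were close together and those of Sa were spread. Oas2, an oligoadenylate synthetase that activates RNase L against viral RNA, was at 39.4, 45.6 and 46.9 FPKM in A100-FMT, 31.9 and 13.3 FPKM in Sa and 11.5 FPKM in the description's column. Sa replicate 1 thus lay nearer to A100-FMT than to the other Sa columns. Ifit1bl1, a relative of Ifit1, was more abundant, at 244, 273 and 306 FPKM in A100-FMT, 172 and 63.5 FPKM in Sa and 106 FPKM in the description's column. Trim30a, which encodes a ubiquitin ligase family protein, was at 43.6, 37.7 and 42.5 FPKM in A100-FMT, 28.7 and 9.59 FPKM in Sa and 15.8 FPKM in the description's column. Its relative Trim30d was at 11.1, 10.4 and 11.4, 5.57 and 1.71, and 3.90 FPKM in the same order (log2 changes 1.50 ± 0.23 and 1.07 ± 0.14; limma, adjusted p = 0.00205 and 0.00133).

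Isg15, Ifit3 and Irf7, further members of the 27, were chosen after their values were seen, for what their products do. Isg15, a ubiquitin-like protein attached to other proteins, was at 228, 233 and 225 FPKM in A100-FMT, 161 and 132 FPKM in Sa and 95.02 FPKM in the description's column (log2 changes 0.65 ± 0.18 and 0.88 ± 0.21; limma, adjusted p = 0.0144 and 0.0156). Ifit3 was at 42.4, 39.99 and 59.4 FPKM in A100-FMT, 37.8 and 19.3 FPKM in Sa and 18.3 FPKM in the description's column, so that its lowest A100-FMT library was only slightly above Sa replicate 1. The transcription factor Irf7 changed by 0.34 ± 0.12 and 0.66 ± 0.17 log2 units, less than the effectors above.

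**Figure D2:**
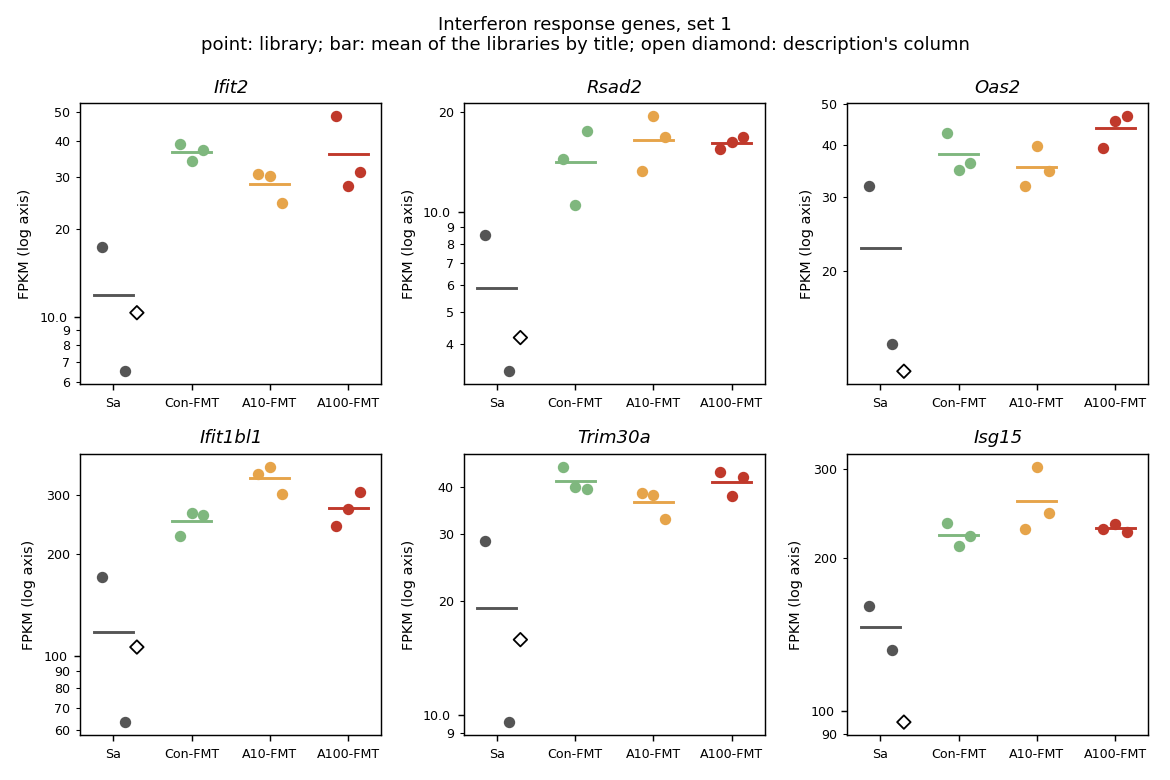
FPKM on a log axis of 6 increased interferon response genes in each library of set 1 (saline and the 3 FMT groups), 1 point a library, with the description's column as an open diamond. The A100-FMT points lie above all Sa points in each panel, and their range overlaps that of Con-FMT or A10-FMT.

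The promoters of some of these genes carry the letters by which the response element is recognised. The sequence GAAANNGAAA was searched on both strands of the 250 bases before the start of each RefSeq gene. It occurred in 8 of the 21 increased interferon response genes with a promoter entry (6 of the 27 had none). Of the members not called, 4 of the 8 with an entry had it. The share was 3.46% of all 27025 genes with an entry and 3.28% of the 8595 tested genes with one. Among all 520 increased genes, 32 of 386 with an entry (8.29%) had it, and 4 of 178 decreased genes (2.25%). Outside the interferon response list, 24 of 365 increased genes with an entry (6.58%) had it. Stretches before the starts of 3 increased genes are shown, 5′ to 3′ on the gene's strand, with each match in capitals. Isg15 (chr4:156200819-156200918, minus strand, GRCm38.p6) has 3 overlapping matches, Ifit3 (chr19:34583353-34583452, plus strand) has 2 matches and Rsad2 (chr12:26456493-26456592, minus strand) has 1. The Ifit3 stretch precedes a start that lies inside the gene's annotated span (chr19:34583119-34588982).
Isg15: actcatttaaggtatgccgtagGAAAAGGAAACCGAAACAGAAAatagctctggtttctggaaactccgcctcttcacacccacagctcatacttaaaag
Ifit3: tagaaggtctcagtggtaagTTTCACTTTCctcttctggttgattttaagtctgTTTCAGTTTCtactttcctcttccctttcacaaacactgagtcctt
Rsad2: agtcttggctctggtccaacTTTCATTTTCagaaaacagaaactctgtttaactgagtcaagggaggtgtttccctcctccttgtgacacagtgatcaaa

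Called members of 2 further defence families were all increased, where 4.59% of all genes were. Of the Schlafen family, interferon-inducible regulators of immune cells and of translation, 3 of 4 tested members (Slfn2, Slfn4, Slfn5) were increased with both columns. Slfn4 had the largest increase of the genes with a symbol that were called with both columns, 14.2, 21.00 and 18.7 FPKM in A100-FMT against 4.45 and 0.50 FPKM in Sa and 2.70 FPKM in the description's column (log2 changes 2.71 ± 0.40 and 2.06 ± 0.29; limma, adjusted p = 0.00205 and 0.00168). The lowest A100-FMT library was far above the highest Sa column. Of 14 interferon-inducible GTPases, which attack the vacuoles of intracellular microbes, 5 were increased (Gbp3, Gbp6, Gbp7, Gbp8 and Gbp9) and 9 were not called with both columns. Gbp7 was at 5.37, 4.26 and 5.63 FPKM in A100-FMT, 3.17 and 0.69 FPKM in Sa and 2.81 FPKM in the description's column. Gbp3 and Gbp7 are neighbours on chromosome 3 and Gbp6, Gbp8 and Gbp9 on chromosome 5, and reads may be shared between members of this family.

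Of 22 NOD-like receptor and inflammasome genes, 6 were increased with both columns (Nlrp9b, Naip6, Aim2, Casp4, Gsdmd and Card9) and 0 decreased, beside 4.59% and 2.09% of all genes. Nlrp9b, an epithelial sensor of viral RNA, was at 8.43, 11.99 and 9.37 FPKM in A100-FMT, 4.61 and 1.35 FPKM in Sa and 3.31 FPKM in the description's column (log2 changes 1.58 ± 0.27 and 1.14 ± 0.19; limma, adjusted p = 0.00308 and 0.00325). Gsdmd, which encodes the pore-forming protein of pyroptosis, was at 125, 139 and 113 FPKM in A100-FMT, 92.6 and 92.1 FPKM in Sa and 62.9 FPKM in the description's column. Like all genes called with both columns, neither overlapped between the groups. Of 16 immunoproteasome and peptide loading genes, 2 (Ubd and Nlrc5) were increased with both columns and 14 were not called. The median log2 change of the 16 was -0.02 and 0.07, where that of all genes was 0.05 and -0.01. Ubd, a ubiquitin-like tag for degradation, ranged widely within A100-FMT, at 33.2, 18.8 and 11.8 FPKM, and was at 5.23 and 3.73 FPKM in Sa and 8.43 FPKM in the description's column (log2 changes 1.92 ± 0.36 and 1.42 ± 0.36; limma, adjusted p = 0.00422 and 0.0243).

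None of 13 MHC class I and of 8 MHC class II genes tested was called with both columns. Nlrc5, the activator of MHC class I transcription, was increased by 0.88 ± 0.17 and 0.55 ± 0.14 log2 units, and H2-D1, the most abundant class I gene, was at 1198, 1265 and 1055 FPKM in A100-FMT, 1078 and 1281 FPKM in Sa and 863 FPKM in the description's column. The groups overlapped for H2-D1, whose reads may be shared with other class I genes. None of 9 intraepithelial and cytotoxic T cell genes and none of 10 chemokines tested was called with both columns.

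Antimicrobial genes of Paneth cells held the opposite pattern. Of 25 tested members, 12 were decreased with both columns and 0 increased, where 2.09% of all genes were decreased. The median log2 change of the 25 members was -1.04 with the title's column and -0.96 with the description's column. The summed level of the list was 17520 to 22750 FPKM in A100-FMT, 39270 and 42090 FPKM in Sa and 41000 FPKM in the description's column. In this tissue RNA, fewer Paneth cells and less RNA per Paneth cell cannot be told apart. With the libraries of set 1 alone 4 of the 12 were called with both columns, and without Sa replicate 3 none was (1470 of all genes tested then had an unadjusted limma p under 0.05).

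Lyz1, the lysozyme of Paneth cells, was at 2163, 1610.4 and 1391 FPKM in A100-FMT, 4598 and 3578 FPKM in Sa and 4644 FPKM in the description's column, a log2 change of -1.26 ± 0.29 (SE; limma, adjusted p = 0.00831) or -1.45 ± 0.28 with the description's column (adjusted p = 0.00573). Lyz2, the lysozyme of macrophages, stayed at or below 1.33 FPKM in all 6 columns. Ang4, a bactericidal ribonuclease, was at 512, 406 and 257 FPKM in A100-FMT, 1403 and 1116 FPKM in Sa and 1386 FPKM in the description's column (log2 changes -1.73 ± 0.31 and -1.89 ± 0.31; limma, adjusted p = 0.00371 and 0.00318). Itln1, which encodes intelectin, a lectin that binds microbial sugars, was at 629, 524 and 478 FPKM in A100-FMT, 1319 and 1446 FPKM in Sa and 1262 FPKM in the description's column (log2 changes -1.35 ± 0.21 and -1.26 ± 0.21; limma, adjusted p = 0.00205 and 0.00321). In each of these 3 genes the highest A100-FMT library was well below the lowest Sa column, and A100-FMT replicate 3 was the lowest.

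The other 9 of the 12 were alpha-defensin genes (Defa5, Defa17, Defa24, Defa26, Defa29, Defa31, Defa35, Defa39 and Defa40). The most abundant, Defa31, was at 7063, 5890.4 and 3681 FPKM in A100-FMT, 12252 and 10506 FPKM in Sa and 12156 FPKM in the description's column (log2 changes -1.08 ± 0.28 and -1.19 ± 0.28; limma, adjusted p = 0.0124 and 0.0156). Defa35 was at 829, 584 and 318 FPKM in A100-FMT, 1532 and 1710.3 FPKM in Sa and 1597 FPKM in the description's column (log2 changes -1.59 ± 0.35 and -1.54 ± 0.35; limma, adjusted p = 0.00707 and 0.013). In both genes A100-FMT replicate 3 was the lowest library. Defa5 changed by -1.28 ± 0.29 and -1.17 ± 0.28 log2 units, Defa17 by -1.10 ± 0.19 and -1.06 ± 0.19 and Defa26 by -1.11 ± 0.19 and -1.11 ± 0.19.

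Alpha-defensin genes are close copies on chromosome 8, and the reads of each cannot be assigned to it with certainty. Over 16 of them with a RefSeq promoter entry, the 250 bases before the start were a median 69.4% identical between pairs, up to 100%, and Defa31 and Defa35 were 73.8% identical. The letters ATCAAAG, those recognised by the TCF factors through which Wnt signals act, were searched on both strands of the same 250 bases. Only 5 of the 12 decreased Paneth cell genes have an entry. The letters occurred in 2 of these, Defa31 and Defa35, and not in Lyz1, Ang4 and Itln1, which are not alpha-defensins. They also occurred in 9 of the 10 members with an entry that were not called. The share was 3.72% of all genes with an entry and 2.83% of the tested genes with one. With so few entries it cannot be told whether the letters set the decreased members apart. The stretches of the 2 decreased genes are shown with each match in capitals, Defa31 at chr8:21191439-21191538 and Defa35 at chr8:21064891-21064990, both on the plus strand of GRCm38.p6.
Defa31: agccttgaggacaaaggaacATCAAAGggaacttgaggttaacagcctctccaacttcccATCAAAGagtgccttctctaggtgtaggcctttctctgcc
Defa35: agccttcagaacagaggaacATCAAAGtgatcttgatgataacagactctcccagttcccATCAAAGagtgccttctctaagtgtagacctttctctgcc
Tcf7l2, which encodes a TCF factor of the crypt, was at 13.4, 13.4 and 13.8 FPKM in A100-FMT, 9.36 and 8.66 FPKM in Sa and 10.3 FPKM in the description's column, an increase of 0.54 ± 0.08 or 0.42 ± 0.08 log2 units. A link between Tcf7l2 and the decreased defensin genes was not tested.

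**Figure D3:**
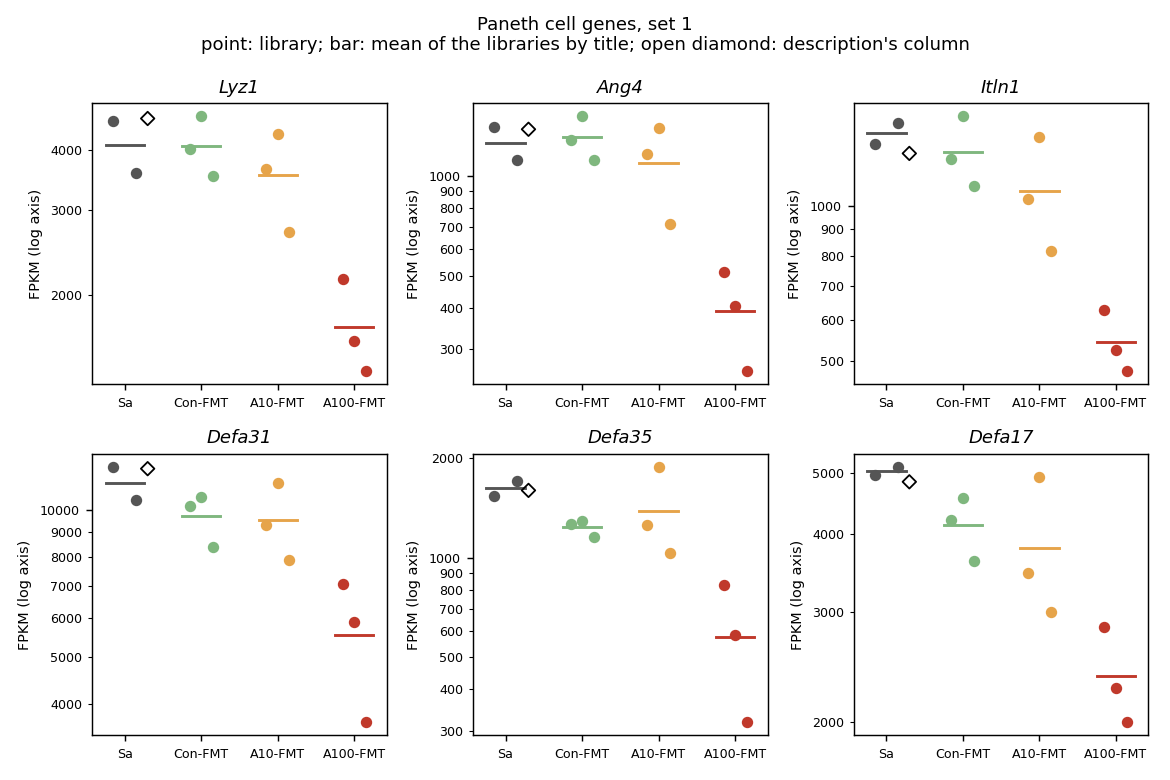
FPKM on a log axis of 6 decreased Paneth cell genes in each library of set 1 (saline and the 3 FMT groups), 1 point a library, with the description's column as an open diamond. The A100-FMT points lie below all Sa and Con-FMT points in each panel.

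Other secretory cells gave mixed values. Of 17 enteroendocrine genes, Cck, Chga and Chgb were decreased and 0 increased, where 2.09% of all genes were decreased. Cck, which encodes the hormone cholecystokinin, was at 19.9, 16.1 and 18.4 FPKM in A100-FMT, 27.6 and 32.5 FPKM in Sa and 28.5 FPKM in the description's column (log2 changes -0.70 ± 0.13 and -0.60 ± 0.12; limma, adjusted p = 0.00419 and 0.00685). Of 17 goblet cell genes, only Muc2, the main mucin of the mucus layer, was called with both columns, a share near the 4.59% of all genes increased. It was at 395, 427 and 459.6 FPKM in A100-FMT, 283 and 375 FPKM in Sa and 235 FPKM in the description's column, a gain of 0.39 ± 0.12 or 0.72 ± 0.11 log2 units.

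In the crypt, 6 of 39 proliferation genes were decreased (Ccnb2, Aurkb, Mcm2, Mcm3, Stmn1 and E2f1) and 0 increased, beside 2.09% and 4.59% of all genes. Mcm2, a subunit of the replicative helicase, was at 21.98, 20.4 and 22.4 FPKM in A100-FMT, 25.3 and 34.4 FPKM in Sa and 28.6 FPKM in the description's column. Of 24 stem cell and Notch genes, Smoc2, Cdca7 and Hes1 were decreased and Ly6a was increased, the latter a share near that of all genes. Hes1, the target of Notch that steers cells to the absorptive fate, was at 37.7, 35.4 and 35.8 FPKM in A100-FMT, 45.3 and 38.8 FPKM in Sa and 46.6 FPKM in the description's column (log2 changes -0.20 ± 0.07 and -0.33 ± 0.06; limma, adjusted p = 0.0315 and 0.00325). Its change with the title's column was 0.011 after GC content and length were adjusted for. Ly6a, also known as Sca-1 and interferon-responsive, was at 268, 193 and 139 FPKM in A100-FMT, 115 and 107 FPKM in Sa and 78.4 FPKM in the description's column.

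Absorptive genes that were called mostly rose, as did called genes in general (4.59% of all genes increased and 2.09% decreased). Of 21 brush-border digestive enzymes, 3 were increased, among them Dpp4 and Mep1b, and 0 decreased, and of 24 genes of microvillus structure, Eps8l2, Anks4b, Tmigd1 and Krt20 were increased and 0 decreased. Mep1b, a meprin protease, was at 277, 276 and 271 FPKM in A100-FMT, 214 and 155 FPKM in Sa and 153 FPKM in the description's column (log2 changes 0.59 ± 0.11 and 0.60 ± 0.11; limma, adjusted p = 0.00422 and 0.00421). Of 26 genes of fat uptake, Fabp2, Apob and Npc1l1 were increased. Apob, the scaffold of chylomicrons, was at 129, 123 and 122 FPKM in A100-FMT, 94.1 and 26.4 FPKM in Sa and 75.5 FPKM in the description's column, so that the title's column stood far below the other Sa values and the change was 1.30 ± 0.29 with it and 0.56 ± 0.12 with the description's column. Pnliprp2, a lipase related to that of the pancreas, was decreased, at 9.59, 5.13 and 5.21 FPKM in A100-FMT, 19.1 and 20.2 FPKM in Sa and 21.03 FPKM in the description's column (log2 changes -1.48 ± 0.28 and -1.51 ± 0.28; limma, adjusted p = 0.00453 and 0.00488). Of the pancreatic acinar markers, 12 of 16 stayed under 1 FPKM in all 6 columns. Among the others, Ctrl was increased with both columns. It was at 1.75, 2.73 and 1.66 FPKM in A100-FMT, 0.92 and 0.89 FPKM in Sa and 1.1 FPKM in the description's column. Clps reached at most 3.95 FPKM and Cela1 6.16 FPKM. Zg16, between 2403 and 4415 FPKM, stood far above every other acinar marker and was not taken as a sign of pancreatic tissue.

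Ion transporters included 3 increased genes of 23, where 4.59% of all genes were increased. Slc34a2, the phosphate transporter of the brush border, was at 41.1, 48.8 and 42.3 FPKM in A100-FMT, 23.8 and 27.9 FPKM in Sa and 17.5 FPKM in the description's column (log2 changes 0.75 ± 0.11 and 1.07 ± 0.12; limma, adjusted p = 0.00205 and 0.00121). Clca4a, a regulator of chloride conductance, was at 11.6, 17.8 and 14.4 FPKM in A100-FMT, 5.44 and 2.55 FPKM in Sa and 3.04 FPKM in the description's column, among the largest increases. Its neighbour Clca4b also rose, by 1.01 ± 0.21 and 0.64 ± 0.11 log2 units.

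Of 19 genes of fatty acid oxidation and ketogenesis, 4 were decreased, among them Acot1, Acot2 and Bdh1, and 0 increased, where 2.09% of all genes were decreased. Acot1, a thioesterase that releases fatty acids from coenzyme A, was at 3.61, 3.70 and 3.89 FPKM in A100-FMT, 6.80 and 5.90 FPKM in Sa and 6.41 FPKM in the description's column (log2 changes -0.63 ± 0.18 and -0.68 ± 0.18; limma, adjusted p = 0.0181 and 0.0271). Its reads may be shared with Acot2, a close copy. None of 24 sterol synthesis and of 12 fatty acid synthesis genes was called with both columns. Of 15 clock genes, 4 were increased, among them Per2, Cry2 and Usp2, where 4.59% of all genes were increased. Per2, a repressor of the daily clock, was at 5.53, 5.42 and 8.20 FPKM in A100-FMT, 2.66 and 1.58 FPKM in Sa and 3.08 FPKM in the description's column. Of 20 genes of epithelial defence that respond to microbiota, Nos2 and Nfkbiz were increased and Ang4 and Itln1, already among the Paneth cell genes, decreased, beside 4.59% and 2.09% of all genes. Nos2, the inducible nitric oxide synthase, was at 13.4, 14.8 and 14.03 FPKM in A100-FMT, 7.15 and 9.24 FPKM in Sa and 6.63 FPKM in the description's column, whereas Reg3b and Reg3g, lectins that hold bacteria off the epithelium, overlapped between the groups at 7762, 10423 and 8527 FPKM of Reg3g in A100-FMT and 9273 and 8987 FPKM in Sa.

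The calls of ribosomal protein genes depended on the column. Of 79 tested members, 58 were decreased with the title's column, 21 with the description's column and 19 with both, where 13.1%, 2.77% and 2.09% of all genes were decreased. Their median log2 changes were -0.39 and -0.20. Their summed level was 56100 to 59460 FPKM in A100-FMT, 63510 and 89070 FPKM in Sa and 68550 FPKM in the description's column. Rps27 was at 899, 954 and 926 FPKM in A100-FMT, 1097 and 1696 FPKM in Sa and 1266 FPKM in the description's column (log2 changes -0.56 ± 0.12 and -0.35 ± 0.08; limma, adjusted p = 0.0076 and 0.0157). Of 74 nuclear-encoded respiratory chain genes, 43 were decreased with the title's column, 4 with the description's column and 4 with both, against the same shares of all genes.

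Genes of splicing and nuclear speckles form a list chosen after the data were seen. Of 33 tested, 15 were increased with both columns and 0 decreased, beside 4.59% and 2.09% of all genes. Clk1, a kinase of splicing factors, was at 36.7, 40.95 and 40.5 FPKM in A100-FMT, 22.03 and 7.92 FPKM in Sa and 24.1 FPKM in the description's column, and here too the title's column was far below the other Sa values. The increased genes had a median transcript length of 1833 bases and a median GC content of 49.15%, the decreased genes 884.5 bases and 52.9%, and all genes tested 1338 bases and 50.6%. After GC content and length were adjusted for, 398 of the 470 increased and 183 of the 219 decreased genes with a GC value were still called with both columns. The part of RNA quality or library preparation in these changes was not tested.

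The largest increases held further genes outside the lists. Cwc22, a splicing factor, was at 111, 63.8 and 129.9 FPKM in A100-FMT, 31.00 and 18.4 FPKM in Sa and 41.4 FPKM in the description's column. Krt12, a keratin, was at 8.65, 8.86 and 9.52 FPKM in A100-FMT, 3.53 and 1.54 FPKM in Sa and 3.16 FPKM in the description's column. Lamtor3-ps, Gm3383 and Gm2237, of which Gm3383 was at 4.42, 3.38 and 4.77 FPKM in A100-FMT, 0.19 and 0.62 FPKM in Sa and 2.67 FPKM in the description's column, lie within the first 20 Mb of chromosome 14 among repeated gene copies. Their reads may be shared, so they count as a single uncertain observation. Of the largest decreases, Cblif, which encodes the carrier of vitamin B12, was at 1.77, 1.05 and 0.73 FPKM in A100-FMT, 6.36 and 2.90 FPKM in Sa and 4.96 FPKM in the description's column, a low level in this tissue.

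The genes of the junction and other proteins measured by immunostaining and blotting were also examined, and none of the 10 tested was called with both columns. Cdh1, which encodes E-cadherin, was at 254, 242 and 251 FPKM in A100-FMT, 239.9 and 233 FPKM in Sa and 244 FPKM in the description's column. Ocln, which encodes occludin of the tight junction, was at 32.6, 30.7 and 34.4 FPKM in A100-FMT, 33.2 and 23.9 FPKM in Sa and 33.6 FPKM in the description's column. The A100-FMT values of Ocln overlapped those of Sa, and those of Cdh1 overlapped only through the description's column. Of 20 tight junction genes, Cgn, which encodes the junction plaque protein cingulin, was increased by 0.28 ± 0.06 and 0.21 ± 0.05 log2 units, a share of the list near the 4.59% of all genes increased, and none of 21 adherens junction and desmosome genes was called with both columns.

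The A100-FMT libraries were also compared with Con-FMT of the same set, where the same 3 A100-FMT libraries served again. Here 22 genes (0.194%) were increased and 24 (0.212%) decreased. The median log2 change of the 40 interferon response genes was 0.03 and none of the 27 increased with saline as control was called. Ifit2 was at 36.7 ± 2.43 FPKM (SD, n = 3) in Con-FMT, a log2 change of -0.07 ± 0.26 (SE; limma, adjusted p = 0.966). The summed interferon response level was 4051 to 4299 FPKM in A100-FMT, 4012 to 4238 FPKM in Con-FMT and 4077 to 4586 FPKM in A10-FMT, all above the 3 Sa columns (2440 to 3346 FPKM). The Paneth cell list behaved otherwise, with a median of -1.02 against Con-FMT. Of its 12 decreased genes, 7 were also decreased against Con-FMT, among them Ang4 at 1309.6 ± 199.8 FPKM (SD, n = 3) in Con-FMT (log2 change -1.78 ± 0.28; limma, adjusted p = 0.00853), Lyz1 at 4079 ± 586 FPKM (log2 change -1.26 ± 0.26; adjusted p = 0.0412) and Itln1 at 1272 ± 202 FPKM (log2 change -1.22 ± 0.19; adjusted p = 0.00797). Cck, Chga and Chgb, the 3 decreased enteroendocrine genes, were also decreased against Con-FMT, where the median of the 17 tested members was -0.32. Pnliprp2 was likewise decreased and Muc2 increased against Con-FMT. Summed ribosomal protein levels of Con-FMT, 54950 to 59080 FPKM, overlapped those of A100-FMT.

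**Figure D4:**
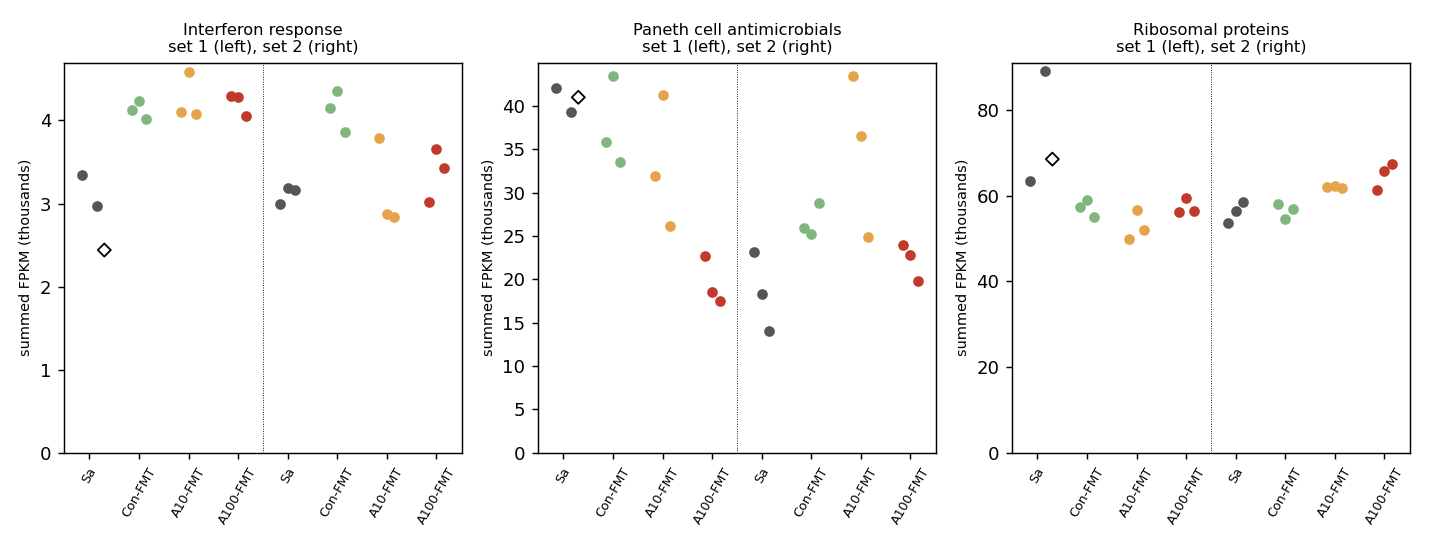
Summed FPKM of the interferon response, Paneth cell antimicrobial and ribosomal protein lists in each library of the 8 groups, 1 point a library, with axes from 0 and the description's column as an open diamond. In set 1 the Sa points stand apart in the interferon and ribosomal panels and the A100-FMT points in the Paneth cell panel, whereas in set 2 A100-FMT and Sa overlap for the first 2 lists.

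Set 2 held a contrast with the same group labels, of 3 A100-FMT and 3 Sa libraries, none of them among the libraries compared above. They had entered the calls above through the shared spread and the expression filter, so the sets were not tested independently. The labels do not state whether set 2 is a repeat of the first set. Here 2 genes (0.0176%) were increased and 2 (0.0176%) decreased, although weighting the libraries by their quality called 1450, and none of the 757 genes was called in its own direction. Of the 520 increased genes, 190 (36.5%) were higher in A100-FMT in set 2, where 58.3% of all genes were. Of the 237 decreased genes, 18 (7.59%) were lower in set 2, where 41.7% of all genes were. Their medians in set 2 were -0.05 and 0.15, beside 0.03 for all genes.

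Hes1 and Slc34a2 were called in set 2 in the opposite direction. Hes1 was at 46.4 ± 1.31 FPKM (SD, n = 3) in A100-FMT and 33.6 ± 1.24 FPKM in Sa of set 2, a log2 change of 0.46 ± 0.06 (SE; limma, adjusted p = 0.00408). Slc34a2 was at 30.3 ± 1.76 FPKM (SD, n = 3) in A100-FMT and 48.8 ± 4.85 FPKM in Sa of set 2, a log2 change of -0.66 ± 0.10 (SE; limma, adjusted p = 0.0109). In set 1 the former had fallen and the latter had risen. The interferon response kept a median above that of all genes in set 2, at 0.16. There 31 of 40 members were higher, where 58.3% of all genes were, and none of the 27 genes was called. Ifit2 was at 23.5 ± 4.47 FPKM (SD, n = 3) in A100-FMT and 15.3 ± 1.44 FPKM in Sa of set 2 (log2 change 0.58 ± 0.26; limma, adjusted p = 0.319). Its change in set 2 failed the correction.

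For the Paneth cell genes, Sa of set 2 lay at the level of A100-FMT of set 1. Lyz1 was at 1897 ± 586 FPKM (SD, n = 3) in A100-FMT and 1654 ± 459 FPKM in Sa of set 2, both means within the range of A100-FMT of set 1, a log2 change of 0.20 ± 0.26 (SE; limma, adjusted p = 0.792). The list summed to 19810 to 23970 FPKM in A100-FMT and 13990 to 23210 FPKM in Sa of set 2. Ribosomal protein levels were higher in A100-FMT of set 2, 61420 to 67390 FPKM against 53580 to 58430 FPKM in Sa. Of 79 genes 76 were higher, where 58.3% of all genes were. Their median log2 change was 0.23, although no member was called. Brush-border enzymes had a median of -0.36 in set 2 against 0.32 in set 1, and summed to 3137 to 3326 FPKM in A100-FMT and 4074 to 4302 FPKM in Sa of set 2. The difference between the sets, tested gene by gene, passed with both columns for 755 genes (6.66%) with a change more positive in set 1 and for 842 (7.43%) with one more negative.

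**Figure D5:**
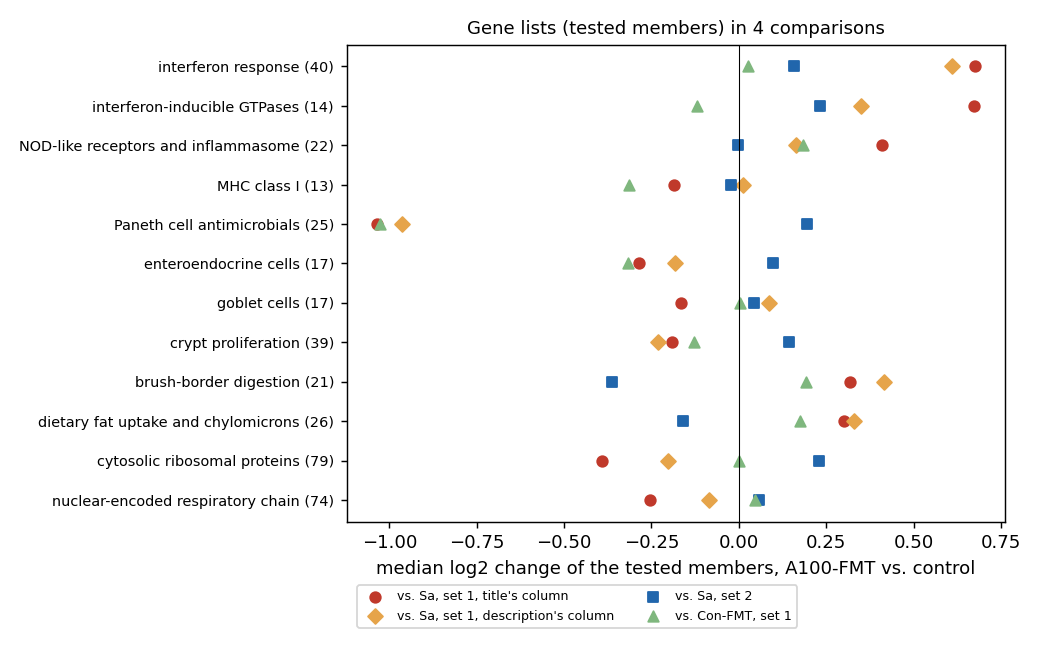
Median log2 change of the tested members of 12 gene lists (x axis) in A100-FMT against Sa of set 1 with the title's column and with the description's column, against Sa of set 2 and against Con-FMT of set 1. The vertical line marks 0. The interferon response sits at 0.67 and 0.61 in set 1, the Paneth cell list at -1.04 and -0.96.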

How the data were processed

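RNA of small intestine was isolated with TRIzol, sequenced on an Illumina HiSeq 2500 and deposited by the authors as FPKM per gene, with mm10 named in the submitters' processing notes. The aligner and counter are not given in the sources used here, and depth is unknown. Genes averaging 1 FPKM or more across the 23 libraries were tested on log2(FPKM + 1) with limma 3.58.1 in R 4.3.3 (trend, 8 groups sharing the spread, Benjamini-Hochberg 0.05). The pseudocount of 1 understates changes of low genes. p-values measure the spread between libraries. Each Sa set 1 comparison was run with the title's and the description's column. Named genes were the 12 largest increases and decreases with a symbol called with both columns and not overlapping, up to 5 called and the 2 most abundant members of each list, and genes of measured proteins. Members, lists and tests were chosen with earlier results of these data known. Promoters came from RefSeq (GRCm38.p6) and lengths and GC content from GENCODE M21, the median over a gene's transcripts. Some genes are not reported here. Scripts were tested on simulated data. Alternatives are given in the closing section.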

Additional observations from a re-analysis of the deposited data

Results flagged for a closer look

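The change from Sa to A100-FMT differed between set 1 and set 2 for 33 of the genes given with values, by an interaction term in the limma fit that passed an adjusted p of 0.05 with both Sa columns of set 1. Most of these genes were singled out by their change in set 1, so the size of the difference is not independent of that choice. The values in parentheses are the log2 change in set 1 minus that in set 2, with the title's column.

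Among defence genes the change was more positive in set 1 for Rsad2 (1.24), Ifit1bl1 (1.68), Trim30a (1.03), Trim30d (1.55), Slfn4 (2.09), Nlrp9b (1.90), Gsdmd (0.51) and Nos2 (1.16). Slfn4, for example, changed by 2.71 in set 1 and 0.62 in set 2. Ifit2 and Oas2 did not pass this test. Among Paneth cell genes the change was more negative in set 1 for Lyz1 (-1.46), Ang4 (-1.92), Itln1 (-1.65), Defa31 (-1.34), Defa35 (-1.73), Defa5 (-1.47), Defa17 (-1.46) and Defa26 (-1.41). Ang4 changed by -1.73 in set 1 and 0.19 in set 2. The change was also more positive in set 1 for Vil1 (0.37), Tcf7l2 (0.56), Mep1b (0.86), Apob (1.89), Slc34a2 (1.41), Clca4b (1.35), Per2 (1.15), Clk1 (1.63), Cgn (0.35), Sesn1 (0.76) and Heph (1.08), genes of other lists in which Slc34a2 changed by 0.75 in set 1 and -0.66 in set 2. It was more negative in set 1 for Cck (-0.98), Mcm2 (-0.70), Hes1 (-0.66), Acot1 (-1.03), Rps27 (-0.80) and Cblif (-1.63), of which Hes1 changed by -0.20 in set 1 and 0.46 in set 2.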

How the results depend on the processing

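The count of genes called in set 1 was 3987 with the title's column and 966 with the description's column. It was 39 and 331 with the 11 libraries of set 1 alone and 1 and 136 with only the 5 libraries compared. Array quality weights called 0 genes with the title's column (1041 had an unadjusted limma p under 0.05), whereas 1199 were called with the description's column. Accordingly, the 520 increased and 237 decreased genes of both columns became 24 and 8 with set 1 alone and 0 and 0 with only the 5 libraries or with the weights, and the interferon response members 0, 0 and 0 of 27, the Paneth cell members 4, 0 and 0 of 12 and the ribosomal protein members 0, 0 and 0 of 19 under these same settings. The GC and length adjustment gave 385 decreased genes. Ribosomal protein members were 8 without a filter and 2 after quantile normalization. Leaving out a library in turn gave 27 to 7061 genes with the title's column, 27 to 834 with the description's column, 22 to 350 increased and 5 to 204 decreased with both, 2 to 30 interferon response, 0 to 11 Paneth cell and 0 to 23 ribosomal protein members, the lowest of each without Sa replicate 3. Genes differing between the sets numbered 3033 (title's column, 0 with the weights, 464 to 6664 leaving out a library) and 2112 (description's column, 464 to 2023 leaving out a library). The 4 genes called in set 2 became 14 without a filter, 7 after quantile normalization, 103 after the GC and length adjustment and 1450 with the weights, and the 46 called against Con-FMT became 18 with a pseudocount of 0.1, 23 at a mean of at least 5 FPKM, 74 after the GC and length adjustment and 277 with the weights. The cause of these shifts was not tested.

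Of the 48 genes given with values that were called with the title's column, 48 were no longer called with the weights, 48 with only the 5 libraries, 42 with set 1 alone and 44 without Sa replicate 3, and at most 4 under each other setting. Of all 53 given, 2 changed sign in an alternative: Hes1, at 0.011 after the GC and length adjustment, and Reg3g, at 0.44 after quantile normalization. Deviations of same-numbered libraries correlated by -0.07 and -0.16 with the title's column and -0.12 and 0.02 with the description's column. Sa has only 2 libraries, whose deviations mirror each other, so these correlations cannot decide whether the replicate numbers pair the samples. With the numbers as a replicate block, 657 increased and 342 decreased genes were called with both columns, and 31 ribosomal protein members.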

Other observations

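Small numbers of genes in the remaining lists were called with both Sa columns in set 1, where 4.59% of all genes were increased and 2.09% decreased. Of 23 p53 targets, Sesn1, which restrains growth under stress, and Fas, a death receptor, were increased and 0 decreased. Sesn1 was at 28.5, 27.9 and 31.2 FPKM in A100-FMT, 21.9 and 20.1 FPKM in Sa and 21.3 FPKM in the description's column. Of 22 cytochrome P450 genes, Cyp3a13, a drug-metabolising enzyme, was increased, at 64.3, 63.9 and 50.1 FPKM in A100-FMT, 34.2 and 15.9 FPKM in Sa and 23.5 FPKM in the description's column. Heph, the ferroxidase that passes iron out of enterocytes, was the increased gene of 12 in iron handling, with log2 changes of 0.66 ± 0.15 and 0.40 ± 0.09. Of 24 intestinal transcription factors, 3 were increased, among them Prdm1 and Tcf7l2. The share of cytochrome P450 genes was near that of all genes.

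None of 13 bile acid, 12 retinoid, 17 sugar transport, 29 glutathione transferase, 31 endoplasmic reticulum stress and 3 tuft cell genes tested was called with both columns in limma. These lists held between 0 and 8 members called with the title's column alone.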
